A study of Populus yunnanensis with 9 samples.

Results

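The genes described here were raised in leaves of Yunnan poplar that received cadmium (Cd) together with nitrogen (N), while their group means under Cd alone stayed near those of the untreated control. The 200 members were chosen by their own expression values from the 41335 genes of the count table. Counts were scaled to a common library total (CPM) with TMM factors, which correct for differences in library composition. A mean of at least 1 CPM over the 9 libraries was required, which 23384 genes met. In 981 of these (4.2%) all 3 libraries with nitrogen lay above the other 6, and in 582 of the 981 the mean with nitrogen was also at least 1.5 times that of each other group. The mean under Cd lay between 80% and 125% of that of the control in 207 of the 582, and the 200 with the largest value of the smaller of both ratios were kept. The last gene kept had a smaller ratio of 1.512 and the first left out had 1.512 as well, so the limit at 200 separated genes of almost the same ratio.

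The samples were RNA sequencing libraries from the fourth to sixth leaves below the shoot tip, in 3 groups of 3. Cd_N plants received Cd to a final 480 mg per kg dry soil and N, as ammonium bicarbonate, to a final 360 mg per kg. Cd plants received the same Cd without added N, and Ck plants received neither. Additions were made every 5 d for 60 d, at 40 mg Cd and, in Cd_N, 30 mg N per kg each time. All plants were grown from cuttings of wild Populus yunnanensis trees, and the assignment of trees, pots or plants to libraries is not given. The p-values below judge group differences against the spread between libraries within groups, which may be technical in part. In the main fit this spread was estimated over the 3 groups together. Fits with the replicate number as a block judge instead against the spread that remains once differences between replicate numbers are taken out. No group received nitrogen without Cd, so an effect of nitrogen on its own cannot be told apart from an effect of nitrogen in plants under Cd. The paper reported more Cd in leaves and roots, and less in soil, with added N than under Cd alone. Equal additions were thus not equal Cd in the leaves. A response to leaf Cd and a response to nitrogen cannot be told apart here. The libraries held between 31952278 and 40101176 counts on genes.

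As background, ammonium that enters a plant is built into glutamine and glutamate by glutamine synthetase and glutamate synthase, and these amino acids supply nitrogen for protein and chlorophyll. Poplars also keep nitrogen in storage proteins of leaf and bark, which are made when nitrogen is plentiful and broken down when it is needed. Cd binds to thiol groups, and plants hold it as complexes with glutathione and phytochelatins, mostly in the vacuole. The deposited tables pair no identifier with a gene name, so it cannot be said here which members belong to these processes, and the leaf label could not be checked against marker genes. Members are therefore described by their levels, their spread and their identifiers.

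Taken as one pool, the members held about 3 times as much of the RNA in Cd_N leaves as in either other group. Their summed level was 14608, 17843 and 14324 CPM in Cd_N replicates 1, 2 and 3. It was 5471, 6286 and 4751 CPM in the Cd replicates and 4157, 6873 and 4938 CPM in the Ck replicates. In raw counts they took 1.45%, 1.78% and 1.44% of each Cd_N library, 0.501%, 0.680% and 0.518% of each Cd library, and 0.398%, 0.661% and 0.496% of each Ck library. The lowest Cd_N sum was above the highest of the other 6, and within each group the sum was highest in replicate 2. A single gene supplied 3956 to 4581 CPM of the sum in Cd_N, and without it the sums were 10652, 13262 and 9958 CPM in Cd_N, 5362, 6044 and 4630 CPM in Cd, and 4147, 6470 and 4926 CPM in Ck. The separation itself follows from the way the members were chosen and is given as a description without a test. In bulk leaf RNA, more cells of a type that expresses a gene and more of its RNA per cell cannot be told apart.

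**Figure D1:**
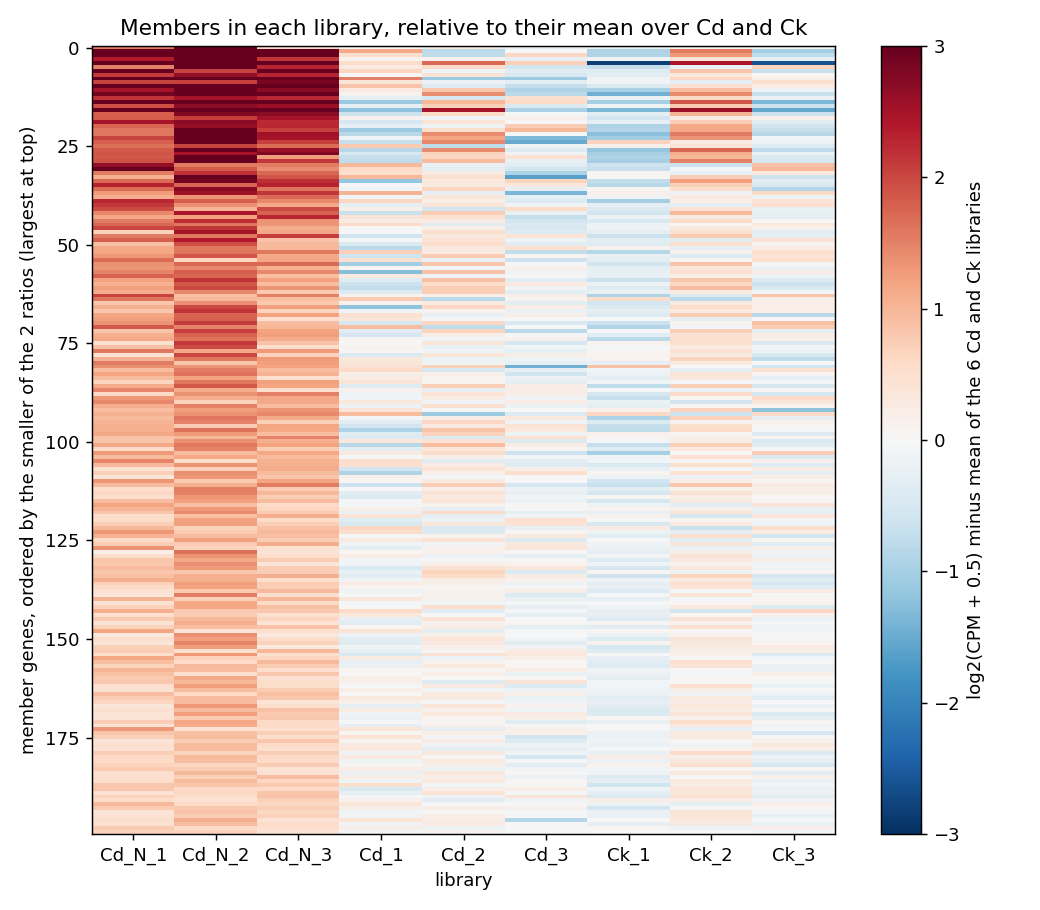
The 200 members (rows, largest smaller ratio at the top) in the 9 libraries (columns). Colour is log2(CPM + 0.5) minus the gene's mean over the 6 Cd and Ck libraries, with the scale ending at 3 in either direction. The 3 Cd_N columns are red throughout, and in the upper rows the replicate 2 columns of Cd and Ck are redder than their neighbours.

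Most members differed by a modest factor. The median ratio of Cd_N to Cd over the members was 2.14, against 0.982 over all genes with at least 1 CPM, and the median ratio of Cd_N to Ck was 2.29, against 0.995. The smaller of both ratios was from 1.5 to 2 in 83 members, from 2 to 4 in 81, from 4 to 10 in 25 and at least 10 in 11. The 83 members with the smallest ratios were moderately abundant, with a median over genes of 33.6 CPM in Cd_N, 21.2 CPM in Cd and 19.0 CPM in Ck. The 11 with ratios of at least 10 had a median of 10.8 CPM in Cd_N, 0.619 CPM in Cd and 0.621 CPM in Ck, and 7 of them were below 1 CPM on average in both Cd and Ck. Over all members, 20 were below 1 CPM in both of these groups and met the abundance limit only through Cd_N. Such genes had to differ to be members.

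Genes whose ratio was largest were not the most even. Within groups, the coefficient of variation (SD as a percentage of the mean) had a median over the 83 members of 17.3% in Cd_N, 18.1% in Cd and 22.2% in Ck. Over the 11 members with the largest ratios it was 40.1% in Cd_N, 82.4% in Cd and 102% in Ck. Over all 200 members the medians were 24.8%, 29.5% and 30.3% in Cd_N, Cd and Ck, against 18.6%, 18.4% and 15.4% over all genes with at least 1 CPM. The difference in spread from the other genes was therefore wider in Ck than in Cd_N. The rule used these same values. Members were also less abundant, with a median over genes of 8.71 CPM across the libraries, against 16.8 CPM over all genes with at least 1 CPM. How far either shaped the spread was not tested.

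By the rule for naming genes, the 2 members with the largest smaller ratio are given by identifier. Potri.015G029400.v3.0 had 1.23, 12.8 and 0.364 CPM in Cd_N replicates 1, 2 and 3. It had 0.0684, 0.213 and 0 CPM in Cd and 0, 0.125 and 0.112 CPM in Ck. Replicate 2 of Cd_N held 473 of the 529 counts of this gene in Cd_N, so the ratios of 51.0 to Cd and 60.7 to Ck rest mainly on 1 library, and they are set against sums of only 10 counts in Cd and 8 in Ck. Potri.014G046300.v3.0 had 31.7, 120 and 18.7 CPM in Cd_N, against 2.22, 0.213 and 0.745 CPM in Cd and 0.156, 3.12 and 0.112 CPM in Ck. The Cd_N mean was 56.9 ± 55.2 CPM, that of Cd 1.06 ± 1.04 CPM and that of Ck 1.13 ± 1.72 CPM (SD, n = 3 each), so the lowest Cd_N library was 6.0 times the highest of the rest. The Ck mean of this gene came almost wholly from replicate 2.

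A further 3 members were chosen for description after their values were seen. Potri.013G101000.v3.0 was the most abundant member. It had 3956, 4581 and 4366 CPM in Cd_N, against 109, 242 and 121 CPM in Cd and 10.1, 403 and 11.6 CPM in Ck. Its means were 4301 ± 318 CPM in Cd_N, 158 ± 73.8 CPM in Cd and 142 ± 227 CPM in Ck (SD, n = 3 each), and the lowest Cd_N library was 9.81 times the highest of the rest. The Cd_N libraries were close together, whereas Ck replicate 2 lay far above the other Ck libraries. Per length, its mean level was 4349 FPKM in Cd_N, 166 FPKM in Cd and 138 FPKM in Ck, where FPKM is the count scaled for gene length and library total.

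Potri.011G076500.v3.0 was even within Cd_N and less so in the other groups. It had 14.6, 19.4 and 17.0 CPM in Cd_N, against 2.91, 0.934 and 0.642 CPM in Cd and 0.886, 2.09 and 1.68 CPM in Ck. The Cd_N libraries were each at least 5.01 times the highest of the others, which was Cd replicate 1. Its means were 16.95 ± 2.40 CPM in Cd_N, 1.49 ± 1.23 CPM in Cd and 1.55 ± 0.611 CPM in Ck (SD, n = 3 each).

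Potri.002G017200.v3.0 had 248, 623 and 275 CPM in Cd_N, against 10.3, 138 and 12.5 CPM in Cd and 9.41, 151 and 8.10 CPM in Ck. Replicate 2 was the highest library in every group, and the Ck and Cd replicates 2 stood above their groups' other libraries by a larger factor than the Cd_N replicate did. The lowest Cd_N library was still 1.64 times the highest of the other 6.

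**Figure D2:**
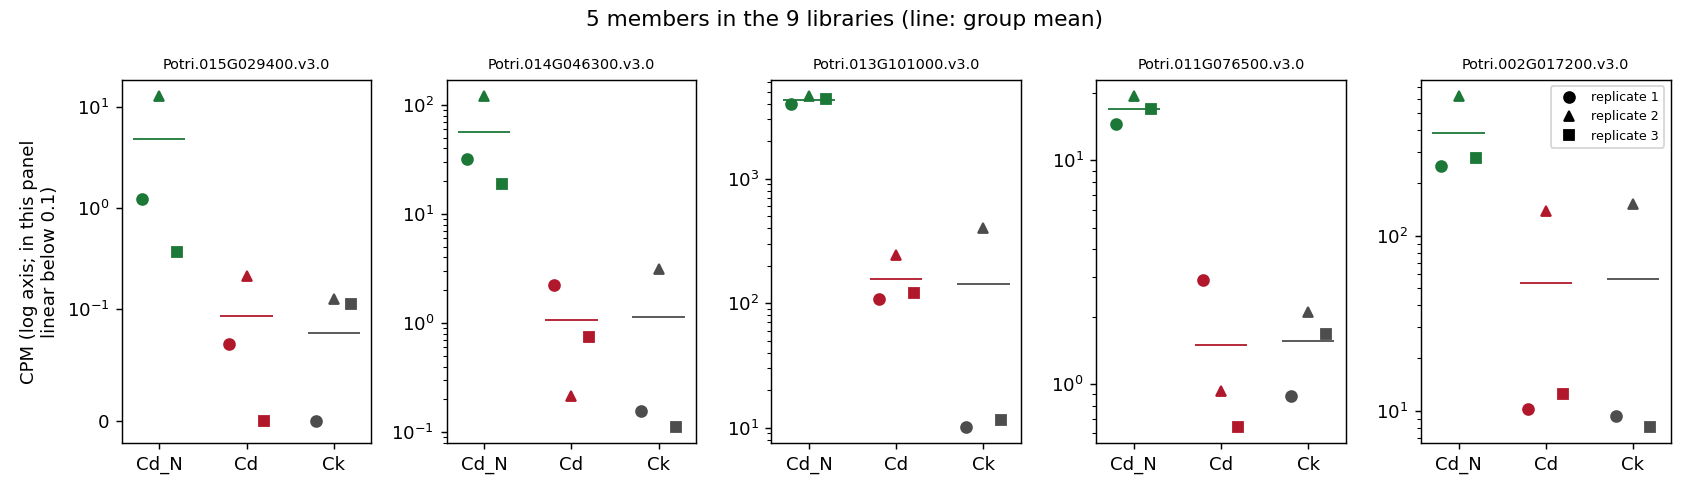
TMM-normalized CPM (vertical log axes, each gene on its own scale, the first panel linear below 0.1) of 5 members in Cd_N, Cd and Ck. Symbols mark replicates 1, 2 and 3 and lines mark group means. In Potri.013G101000.v3.0 and Potri.002G017200.v3.0 the Ck replicate 2 triangle lies far above the other Ck points.

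The distance between Cd_N and the rest was narrow for most members. The lowest Cd_N library divided by the highest of the other 6 had a median of 1.22 and a range from 1.00 to 9.81. It was at least 2 in 21 members and at least 1.5 in 45, and it was below 1.1 in 44. Within Cd_N, the highest library was at least 2 times the lowest in 49 members, and in 28 members a single library held over 50% of the Cd_N sum. The library nearest to Cd_N from below was Ck replicate 2 in 82 members, Cd replicate 2 in 48, Cd replicate 1 in 40, Ck replicate 3 in 16, Cd replicate 3 in 12 and Ck replicate 1 in 2. The lowest Cd_N library was replicate 1 in 101 members, replicate 3 in 69 and replicate 2 in 30.

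The members shared a pattern within groups that the rule did not name, a higher level in the libraries numbered 2. The rule used these same values, and a high Ck replicate 2 raises the Ck mean that was set against Cd. The pattern is therefore not independent of the choice of members, and how far the choice shaped it was not tested. Replicate 2 was the highest of its group in 128 members in Cd_N, in 105 in Cd and in 139 in Ck. These are 64.0%, 52.5% and 69.5% of the members, against 40.1%, 36.0% and 40.4% of all genes with at least 1 CPM. It was the highest in all 3 groups at once in 70 members (35.0%), against 13.9% of all genes, and in none of the groups in 28 members (14%), against 33.5%. Replicate 2 divided by the mean of replicates 1 and 3 had a median over the members of 1.29 in Cd_N, 1.22 in Cd and 1.44 in Ck. Over all genes this median was 0.977, 1.00 and 1.00 in the same order of groups. The ratio was at least 2 in 25 members in Cd_N, 32 in Cd and 46 in Ck, which are 12.5%, 16% and 23.0% of the members, against 6.78%, 4.78% and 4.02% of all genes. In 21 members it was at least 2 in both Cd and Ck, a count for which no share over all genes was worked out. The members vary more than other genes within each group, and no test of these shares was made. What libraries of the same number have in common is not given in the sources used here.

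**Figure D3:**
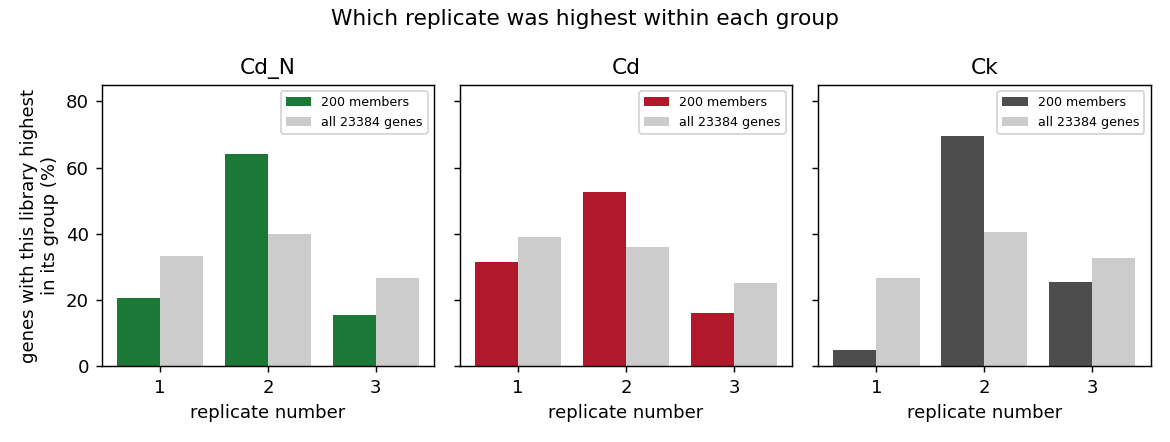
Percentage of genes in which each replicate number was the highest of its group, for the 200 members (coloured bars) and all 23384 genes with at least 1 CPM (grey bars). Replicate 2 was highest in 64.0% of members in Cd_N, 52.5% in Cd and 69.5% in Ck.

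The members' ratio of Cd to Ck moved most when Ck replicate 2 was left out. With all 9 libraries the ratio of the Cd mean to the Ck mean had a median of 1.04, and the Cd mean was above the Ck mean in 116 members and below it in 84. The rule fixed the range of this ratio. Without Ck replicate 2 the median was 1.17, against 1.02 over all genes, and 84 members fell outside the range from 80% to 125%, 78 of them above it. These are 42% and 39% of the members, where 38.5% of all genes lay outside and 21.1% above. The members' share outside was then near that of all genes, although the rule had kept every member inside. With all 9 libraries, 35.3% of all genes lay outside and 19.0% above, so the share of all genes changed little. In 13 members the Cd mean was then at least 2 times the Ck mean, and the share of all genes was not worked out. The ratio of Cd to Ck was 14.5 for Potri.013G101000.v3.0, 7.91 for Potri.014G046300.v3.0 and 6.11 for Potri.002G017200.v3.0 without that library, against 1.112, 0.939 and 0.950 with all libraries. For Potri.011G076500.v3.0 it was 1.17, against 0.963. With replicate 2 left out of Cd and Cd_N too, the ratio was 10.5, 11.05 and 1.29 for the first 3 of these genes and 1.38 for the last. Potri.002G017200.v3.0 was thus high in replicate 2 of both Cd and Ck, and its ratio of 6.11 came from leaving out only the Ck one. Leaving out any other Cd or Ck library put between 41 and 53 members outside the range. These are 20.5% to 26.5% of the members, against 30.8% to 47.9% of all genes.

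Without Ck replicate 2, 115 of the 200 members still met the whole rule. This was the lowest number for any single library, the others leaving between 137 (without Cd replicate 1) and 192 (without Cd_N replicate 3). With all 3 libraries numbered 2 left out, an alternative added after the data were seen, 110 members still met it. The ratios to Cd_N moved little, with medians of 2.09 to Cd and 2.25 to Ck without the libraries numbered 2. Of the members that no longer met the rule, 71 were outside the range for Cd against Ck, 52 above and 19 below (35.5% of members, against 31.8% of all genes outside), while 21 had a smaller ratio under 1.5 and 7 a mean under 1 CPM.

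**Figure D4:**
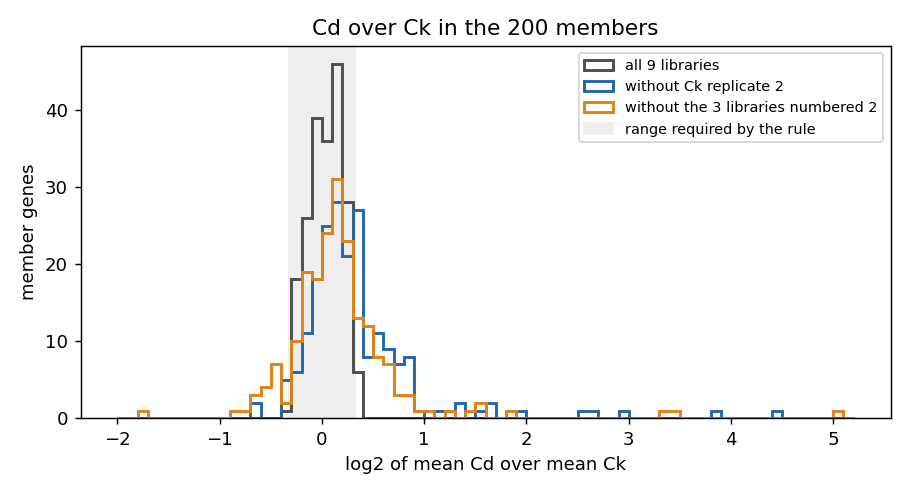
Histogram of the log2 ratio of the Cd mean to the Ck mean in the 200 members, with all 9 libraries, without Ck replicate 2 and without the 3 libraries numbered 2. The grey band is the range that the rule required with all libraries, and 84 members lie outside it without Ck replicate 2, most of them to the right.

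Set beside each other by replicate number, Cd_N was at least 1.5 times Cd in 156, 182 and 172 members in numbers 1, 2 and 3. It was at least 1.5 times Ck in 182, 176 and 164 members. In 96 of the 200 members both ratios reached 1.5 in all 3 numbers. The rule had required every Cd_N library above all others and mean ratios of at least 1.5. Such counts thus follow largely from the choice of members. No shares over all genes were worked out for the counts by number, and what a number shares is not given. The median ratio of Cd to Ck over the members was 1.21 in number 1, 0.940 in number 2 and 0.997 in number 3, and Cd was above Ck in 151, 75 and 100 members. The sign of the small difference between Cd and Ck was thus not the same in the 3 numbers.

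The tests across all genes used the same contrasts that chose the members, so their counts describe the members and lend them no support. In Cd_N against Cd, edgeR's quasi-likelihood test with Benjamini-Hochberg adjustment called 0 of the 200 members higher at an adjusted p under 0.05, as it called 0% of all 27378 genes tested. At an unadjusted p under 0.05 it gave 186 members, where 6.81% of all genes were higher. DESeq2 gave an unadjusted p to 196 members and to 34772 genes in all. After adjustment it called 87 of these members higher, against 1.97% of these genes. Genes to which it gave no adjusted p were counted as not called. The 27378 and the 34772 genes both include genes with a mean under 1 CPM, whereas every member reached that level. The shares of all genes are therefore not like for like with those of the members. With the replicate number as a block, edgeR called 32 members higher in this contrast, against 0.756% of all genes. In Cd_N against Ck, edgeR called 0 members and 0.201% of all genes higher. At an unadjusted p under 0.05 it gave 190 members, where 9.44% of all genes were higher. DESeq2 called 127 of its 196 members after adjustment, against 3.56% of its 34772 genes. With the block, edgeR called 90 members higher here, against 2.95% of all genes. Without the block, edgeR called 13 members in Cd_N against Ck when Cd replicate 1 was left out, among 268 genes higher in all. It called 4 without Ck replicate 2, among 24, 2 without Cd_N replicate 3, among 38, and 2 with only the compared groups, among 65, and 0 without any other library. In Cd against Ck, edgeR called 0 members, also at an unadjusted p, and DESeq2 called 0 as well, for a ratio whose range the rule itself had set.

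The same rule was applied to each group in turn, as a description. It gave 207 genes higher and 219 lower in Cd_N alone, 76 higher and 86 lower in Cd alone, and 129 higher and 151 lower in Ck alone. These are 0.885% and 0.937%, 0.325% and 0.368%, and 0.552% and 0.646% of the 23384 genes with at least 1 CPM. Genes that stood apart in Cd_N were thus about as often lower as higher. These counts share libraries, and their differences were not tested.

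Gene length was not used by the rule. Lengths recovered from the ratio of counts to FPKM had a median of 1742 bases, against 1926 over all genes with at least 1 CPM, with the middle 50% from 1006 to 3293 bases against 1008 to 3789. What these lengths measure was not established. Expression level was used by the rule, through its minimum and its ratios, and is given as a description. The mean level over 9 libraries had a median of 5.86 FPKM, against 7.79 over all genes. By group, the members' median was 9.15 FPKM in Cd_N, 3.92 in Cd and 3.59 in Ck, so that in Cd_N they were above the median of all genes of 7.76 FPKM, and in Cd and Ck they were below the medians of 7.98 and 7.29. A mean of at least 1 FPKM was reached by 191 members in Cd_N and by 155 in both Cd and Ck. In mean CPM, 42.5% of members lay from 2 to 10, against 27.7% of all genes, and 37.0% lay from 10 to 100, against 55.1%.

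The identifiers of the members covered all 20 prefixes in use, which are 001 to 019 and T. The prefix 004 had 18 members (9%, against 5.50% of all genes with at least 1 CPM), 017 had 12 (6%, against 3.36%) and 011 had 13 (6.50%, against 3.58%). The prefixes 001 and 005 had 13 and 5 members, 6.50% and 2.50%, against 11.6% and 6.72% of all genes. No 2 members had numbers within 100 of each other, the usual step between identifiers. With members sorted by number within each prefix, 20 pairs of neighbours in that order lay within 1000. No number to set beside these 20 was worked out from all genes. Whether identifier order follows position in the genome, and whether members share reads with near-identical copies, was not tested.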

How the data were processed

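Leaf RNA from 9 libraries was analysed, 3 in each of Cd_N, Cd and Ck, with groups and replicate numbers from the sample labels. Read counts for each gene, not normalized, were deposited with FPKM values from the authors, which equalled each count scaled to 1 length per gene and the library total within a relative tolerance of 1e-06. The submitters' processing notes name Bowtie2 2.0.6 and TopHat2 2.0.12 without a role. The counting tool, the genome build and the use of strand are not given in the sources used here, so reads of paralogs, overlapping or antisense genes may have been shared between genes. The mass of ammonium bicarbonate per addition differs between the labels and the paper.

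The members, the rule and the tests were chosen with earlier results of these data known. Counts were scaled with TMM factors in edgeR 4.0.16 (R 4.3.3). The 27378 genes that passed filterByExpr (minimum count 10, minimum total 15) entered edgeR's quasi-likelihood test, fitted to the 3 groups together without a block, with Benjamini-Hochberg adjustment and a threshold of 0.05. DESeq2 1.42.0 was an alternative, with upper-quartile factors, no filter, only the compared groups, the replicate number as a block, other limits of the rule and each library left out. The test scripts were tested on simulated data. Plots used matplotlib 3.10.9. All 200 members passed the filter. Genes to name were set as the 2 members with the largest smaller ratio where no gene names were at hand, and lists by product name could not be used.

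Libraries with the same number deviated together from their group means in Cd_N and Ck, with correlations across genes of 0.183, 0.323 and 0.115 for numbers 1, 2 and 3, all over the limit of 0.1. In Cd_N and Cd they were 0.135, 0.435 and 0.0449, and in Cd and Ck 0.395, 0.385 and 0.0543. The labels do not say what a number shares. Within groups, the squared deviation between the counts of any 2 libraries averaged at least 29.5 times its sampling variance (chi-square per gene), so none was counted as a repeat.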

Additional observations from a re-analysis of the deposited data

How the results depend on the processing

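The number of genes that met the rule before the limit of 200 was 207. It was 225 with upper-quartile factors, of which 197 were among the members, 212 with DESeq2 size factors (all 200) and 197 with the total count alone (161). It was 117 with a limit of 2-fold and 124 with a ratio of Cd to Ck from 90% to 111%, both narrower by construction, 281 without a minimum CPM, 138 with at least 5 CPM and 467 without the 3 libraries numbered 2. Leaving out single libraries gave 219 to 348. The number was over 1.5 times the main count without Cd_N replicate 1 (348), Cd replicate 2 (338) or Ck replicate 2 (318). Each omission left fewer libraries to be separate and also moved a group mean. Why these 3 gave the most was not tested.

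Over all genes, edgeR called 0 in Cd_N against Cd, 73 in Cd_N against Ck and 0 in Cd against Ck, where 3422, 4668 and 2706 genes had an unadjusted p under 0.05. DESeq2 called 1069, 2133 and 627 in this order, and only the compared groups gave 2 in the first contrast. Leaving out single libraries, the counts ranged from 0 to 22, from 0 to 440 and from 0 to 499. The highest were without Ck replicate 2 for the first and without Cd replicate 1 for the others. The 73 became 42 without Cd_N replicate 3, 3 without Cd replicate 3, and 0 without Cd_N replicates 1 or 2, Cd replicate 2, or Ck replicates 1 or 3. The cause was not tested.

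With the replicate number as a block, edgeR called 313 genes in Cd_N against Cd, 1442 in Cd_N against Ck and 4 in Cd against Ck. Of the members it called 32, 90 and 0. In Cd_N against Cd and in Cd against Ck 1 of the 3 pairs fell short of the limit for a pairing. No scaling moved the median log2 ratio of all genes by over 0.1.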
